A study of Mus musculus with 10 samples.

Results

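The F-BAR proteins are curved, dimeric scaffolds that bend or sense cell membranes. The RNA of 8 of their genes was followed in mouse cortical neurons given BDNF, a neurotrophin that signals through the receptor TrkB, and a virus carrying the histone variant H2BE. The 8 genes (Trip10, Fnbp1, Fnbp1l, Pacsin1, Pacsin2, Pacsin3, Fcho1 and Fcho2), out of 48526 genes in the count table, were chosen by family membership, as relatives of Trip10 and Pacsin3, and those 2 were selected on their log2 fold change for BDNF under the control virus, where they had been seen among the largest falls. All 8 were found by symbol in the deposited table, and all 8 passed the filter on low counts. Wild-type neurons came from E16.5 cortices of C57BL/6J mice and received 0.5 µM AraC, which kills dividing cells. They were infected with a lentivirus expressing H2BE from a constitutively active promoter or with a control lentivirus, and polyA RNA was taken 24 h after BDNF or no stimulation. The groups were H2BE virus with BDNF (H2BE+BDNF, 2 libraries), H2BE virus alone (H2BE, 2), control virus with BDNF (BDNF, 3) and control virus alone (Control, 3). BDNF therefore was tested under both viruses, and H2BE with and without BDNF.

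An F-BAR domain binds acidic phospholipids through its concave face and shapes membrane into tubules or pits, from which actin assembly and dynamin can pinch off a vesicle. In the CIP4 subfamily (Trip10, Fnbp1, Fnbp1l) a Cdc42-binding region and an SH3 domain couple this to N-WASP and branched actin. The PACSIN subfamily, also called syndapins, couples it to dynamin and N-WASP, and the FCHO subfamily acts at the start of clathrin-coated pits. In neurons these proteins are known for their roles in synaptic vesicle retrieval, receptor uptake and the outgrowth of neurites.

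Total counts per library ranged from 5058074 to 14142545. Control replicate 3 exceeded Control replicate 1 at 0 of 48526 genes and held 73.67% of its counts, while for BDNF the same pair gave 0 genes and 61.86%. In both groups replicate 3 thus holds a subset of replicate 1, and the pair was counted as 1 sample, which leaves 2 distinct samples in every group. Levels are CPM, counts relative to the library total after TMM scaling, with the CPM of replicates 1 and 3 averaged. The tests left out replicate 3 of Control and BDNF, so fold changes and SEs rest on replicates 1 and 2 of these groups. Nothing in the labels tells whether replicates came from separate cultures, so a p-value here covers only the spread among the samples, which may be technical. H2bc21, the gene of H2BE, stood at 33.5 ± 2.2 CPM in H2BE+BDNF and 39.2 ± 5.1 CPM in H2BE, against 3.95 ± 0.15 CPM in BDNF and 5.29 ± 0.082 CPM in Control (SD, n = 2 each). The summed level of 5 markers of all neurons was 5130 to 5140 CPM in H2BE+BDNF, 5140 CPM in both H2BE samples, 5230 to 5410 CPM in BDNF and 4810 to 4900 CPM in Control. Within this sum single markers moved in opposite directions with BDNF, with Map2 at a log2 fold change of 0.35 under the H2BE virus and 0.55 under the control virus, Rbfox3 at -0.66 and -0.59, and Tubb3 at -0.36 and -0.47. Under the H2BE virus Syt1 also fell (-0.30), so that 1 of the 5 rose and 3 fell. In such bulk samples fewer cells of a type and less RNA per cell cannot be told apart.

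The members differed widely in level. Per kb of annotated exon (GENCODE M21), Fnbp1l was the highest in Control at 40.5 CPM per kb, followed by Pacsin1 at 23.4, Fcho1 at 15.3 and Fnbp1 at 8.29 CPM per kb. Pacsin3 (6.45 ± 0.69 CPM per kb) and Pacsin2 (5.92 ± 0.28) came next and did not differ beyond their spread, and Trip10 at 3.88 ± 0.68 and Fcho2 at 1.90 ± 0.23 CPM per kb were the lowest. Divided by the longest transcript instead, Pacsin3 stood at 14.0 CPM per kb, above Fnbp1 at 9.82 and Pacsin2 at 7.86. The order of Pacsin3 among the members thus depends on the length used. With BDNF under the control virus the 3 highest kept their places, while Pacsin3 (1.18 CPM per kb) and Trip10 (0.618) stood at the bottom, below Fcho2 (1.49).

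Trip10 encodes CIP4, which binds active Cdc42 and N-WASP and is known as a brake on neurite formation in cultured cortical neurons. The gene lies on chromosome 17 (mm10, 57249455 to 57263665, plus strand). In raw counts it had 31 and 22 in H2BE+BDNF, against 84 and 63 in H2BE, and 19 and 29 in BDNF replicates 1 and 2, against 203 and 62 in Control replicates 1 and 2. In CPM these were 3.70 and 3.16 in H2BE+BDNF, against 11.9 and 12.5 in H2BE, and 1.57 and 2.35 in BDNF, against 13.9 and 10.8 in Control. Every sample with BDNF lay below every sample without it. Under the control virus this is a log2 fold change of -2.68 (SE 0.23), at position 8 from the lowest among 13452 tested genes, and as that contrast led to the choice of the family no p-value is given for any member there. Under the H2BE virus Trip10 fell 3.51-fold (log2 fold change -1.81, SE 0.24, adjusted p = 4.86e-05, edgeR, n = 2), at position 45 from the lowest. Those libraries were not used for the choice, although their fall of Trip10 and Pacsin3 was known as well, so the test is no independent evidence.

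The other members of the CIP4 subfamily are more abundant and moved less. Fnbp1l (chromosome 3, 122538719 to 122619715, minus strand) encodes Toca-1, which activates N-WASP together with Cdc42. It stood at 427 and 401 CPM in H2BE+BDNF, against 505 and 530 CPM in H2BE, and at 436 and 403 CPM in BDNF, against 495 and 508 CPM in Control. The groups did not overlap under either virus, and under the H2BE virus Fnbp1l fell by 0.32 on the log2 scale (SE 0.06, adjusted p = 0.000473, edgeR). Under the control virus its log2 fold change was -0.26 (SE 0.05). Fnbp1 (chromosome 2, 31026206 to 31142008, minus strand) encodes FBP17, which polymerizes on membranes and recruits N-WASP. Its samples ran from 81.7 to 89.4 CPM in H2BE+BDNF, from 86.7 to 90.6 CPM in H2BE, from 87.6 to 92.9 CPM in BDNF and from 80.7 to 85.6 CPM in Control. Fnbp1 was not called under the H2BE virus (log2 fold change -0.06, 95% interval -0.22 to 0.11, adjusted p = 0.649, edgeR). Under the control virus its groups did not overlap, with a log2 fold change of 0.13 (SE 0.07).

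**Figure D1:**
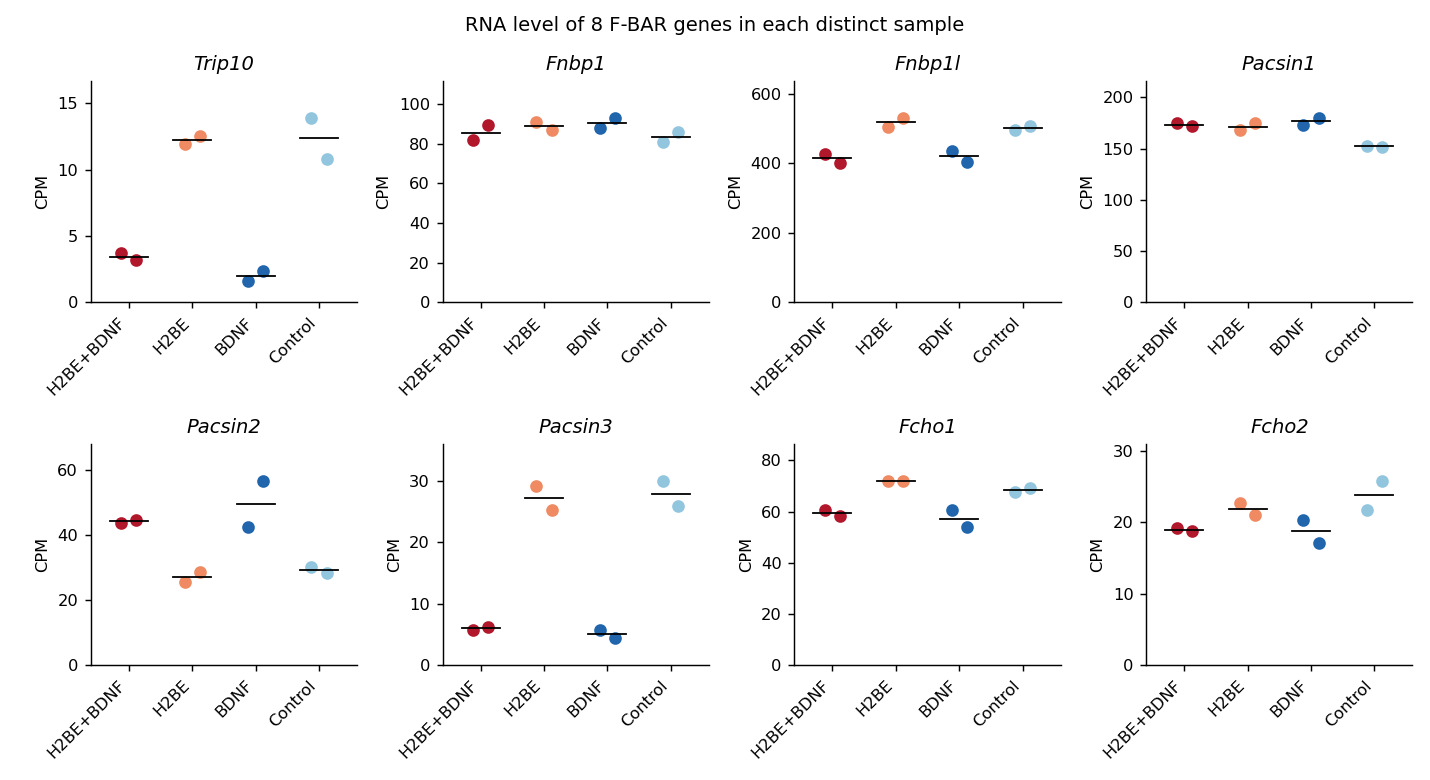
RNA level (CPM, linear axes from 0) of the 8 F-BAR genes in each distinct sample of H2BE+BDNF, H2BE, BDNF and Control, with points for samples and a line for the mean of 2. Trip10 and Pacsin3 are low in all 4 samples with BDNF (at most 3.70 and 6.18 CPM), and Pacsin2 is high in them (at least 42.5 CPM).

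The 3 PACSIN genes went separate ways with BDNF. Pacsin3 (chromosome 2, 91255954 to 91264679, plus strand) encodes the syndapin best known from muscle and lung, where it shapes caveolae and binds the channel TRPV4. It had 48 and 43 raw counts in H2BE+BDNF, against 206 and 128 in H2BE, and 71 and 55 in BDNF replicates 1 and 2, against 428 and 148 in Control replicates 1 and 2. In CPM it stood at 5.73 and 6.18 in H2BE+BDNF, against 29.1 and 25.3 in H2BE, and at 5.74 and 4.47 in BDNF, against 30.0 and 25.8 in Control. All 4 samples with BDNF lay far below the other 4. Pacsin3 fell 4.60-fold under the H2BE virus (log2 fold change -2.20, SE 0.18, adjusted p = 2.74e-07, edgeR), at position 23 from the lowest of the tested genes. Under the control virus its log2 fold change was -2.42 (SE 0.16), at position 14. An annotated noncoding gene on the opposite strand, Gm17281, overlaps an exon of Pacsin3 and had 1 to 9 counts per library. Whether the counting used strand is not given in the sources used here.

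Pacsin2 (chromosome 15, 83375607 to 83464606, minus strand) encodes the widely expressed syndapin, known for endocytosis and caveolae. It stood at 43.7 and 44.4 CPM in H2BE+BDNF, against 25.6 and 28.7 CPM in H2BE, and at 42.5 and 56.6 CPM in BDNF, against 30.0 and 28.1 CPM in Control. All samples with BDNF lay above all without it, and BDNF replicate 2 was the highest. Pacsin2 rose 1.63-fold under the H2BE virus (log2 fold change 0.71, SE 0.13, adjusted p = 0.000903, edgeR), against a log2 fold change of 0.76 (SE 0.12) under the control virus. Pacsin1 (chromosome 17, 27655509 to 27711482, plus strand) encodes the neuronal syndapin, which takes part in the retrieval of synaptic vesicles. It had 175 and 172 CPM in H2BE+BDNF, against 168 and 175 CPM in H2BE, and 173 and 180 CPM in BDNF, against 153 and 152 CPM in Control. Under the H2BE virus the groups overlapped, with a log2 fold change of 0.02 (95% interval -0.11 to 0.14, adjusted p = 0.866, edgeR). Under the control virus they did not overlap and the log2 fold change was 0.20 (SE 0.06).

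Of the FCHO genes Fcho1 fell under the H2BE virus, a call that several settings did not keep, and Fcho2 was not called. Fcho1 (chromosome 8, 71708387 to 71725716, minus strand) and Fcho2 (chromosome 13, 98723403 to 98815449, minus strand) encode early proteins of clathrin-coated pits, which bind AP2 and EPS15. Fcho1 had 60.8 and 58.2 CPM in H2BE+BDNF, against 71.9 and 72.1 CPM in H2BE, and 60.7 and 53.8 CPM in BDNF, against 67.5 and 69.1 CPM in Control. The groups did not overlap under either virus, and under the H2BE virus Fcho1 fell by 0.27 on the log2 scale (SE 0.09, adjusted p = 0.0299, edgeR). That call was lost with DESeq2 (adjusted p = 0.0897) and in edgeR once libraries were corrected for length and GC (0.0972). It was also lost when any single library of either group was left out, with an edgeR adjusted p of 0.0816 and 0.152 without replicates 2 and 3 of H2BE+BDNF, and 0.13 and 0.107 without those of H2BE alone. Fcho2 had 19.1 and 18.8 CPM in H2BE+BDNF, against 22.6 and 21 CPM in H2BE, and 20.3 and 17.1 CPM in BDNF, against 21.7 and 25.8 CPM in Control. It was not called under the H2BE virus (log2 fold change -0.21, 95% interval -0.51 to 0.09, adjusted p = 0.317, edgeR), and its log2 fold change under the control virus was -0.34 (SE 0.12). Its groups did not overlap under either virus, so with 2 samples each a lack of overlap can occur without a call. How often this held over all genes was not counted.

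In all, under the H2BE virus 5 of the 8 genes were called with BDNF, where 25.8% of all 13452 tested genes were called. Trip10, Pacsin3, Fnbp1l and Fcho1 fell, where 12.3% of tested genes fell, and Pacsin2 rose, where 13.4% rose. The median log2 fold change of the 8 was -0.24, beside 0 over all tested genes. The count was 4 to 5 when any 1 library was left out, and 4 with DESeq2. Among the 6 genes other than Trip10 and Pacsin3, 3 were called there. Under the control virus, the contrast from which the family was chosen, 6 of the 8 and 31.4% of tested genes passed the threshold, which the choice itself fixes in part and from which nothing is read. Trip10, Pacsin3, Fnbp1l and Pacsin2 were called under the H2BE virus in each of the 15 alternative settings, with log2 fold changes of -1.94 to -1.71 for Trip10, -2.29 to -2.10 for Pacsin3, -0.36 to -0.27 for Fnbp1l and 0.61 to 0.78 for Pacsin2.

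**Figure D2:**
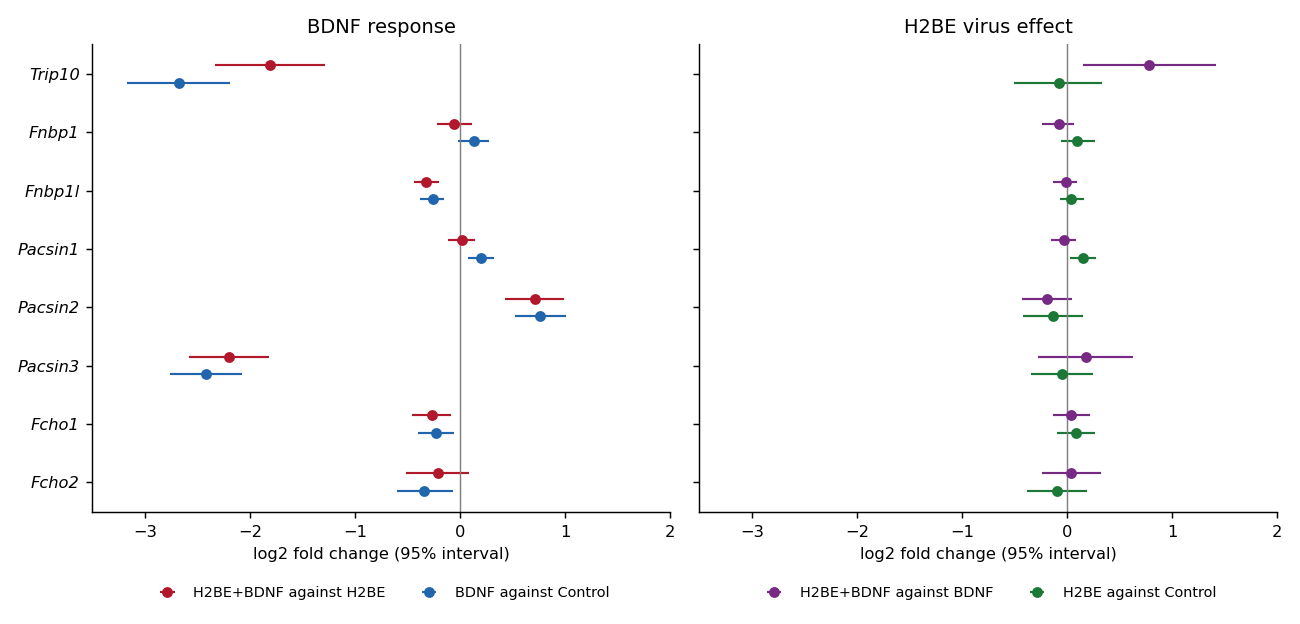
Log2 fold change with 95% interval (edgeR) of each gene for BDNF under the H2BE and the control virus (left) and for the H2BE virus with and without BDNF (right). With BDNF Trip10 lies at -1.81 under the H2BE and -2.68 under the control virus, and Pacsin3 at -2.20 and -2.42. Pacsin2 lies at 0.71 and 0.76 in the same order. For the H2BE virus every point estimate but that of Trip10 with BDNF lies within 0.2 of 0, while several intervals reach further. Trip10 lies there at 0.78, a description, since it was selected as low in the BDNF libraries.

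For the H2BE virus, counts are given over the 6 genes other than Trip10 and Pacsin3, which were selected on the BDNF and Control libraries. For H2BE against Control edgeR called 0 of the 6, beside 2.13% of tested genes, 1 had an unadjusted p under 0.05, and DESeq2 called 0 while giving 2 no adjusted p. The gene with the low unadjusted p was Pacsin1, at 168 and 175 CPM in H2BE against 153 and 152 CPM in Control (log2 fold change 0.15, SE 0.06, adjusted p = 0.173, edgeR). For H2BE+BDNF against BDNF edgeR called 0 of the 6, beside 0.0223% of tested genes, with 0 at an unadjusted p under 0.05 and 0 by DESeq2. Trip10 had 3.70 and 3.16 CPM in H2BE+BDNF, against 1.57 and 2.35 CPM in BDNF, a log2 fold change of 0.78 (SE 0.30) that rests on 31 and 22 counts against 19 and 29. It is a description, since the BDNF libraries are those in which Trip10 was selected as low. Pacsin2 was called in that comparison only when BDNF replicate 1 was left out (log2 fold change -0.36, adjusted p = 0.032, edgeR), and its log2 fold change over all distinct libraries was -0.19. BDNF then has 1 sample, which is assumed to vary like the other groups.

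Whether BDNF acted differently under the H2BE and the control virus was tested for the genes that the choice did not rest on. edgeR called 0 of these 6, beside 1.15% of tested genes, 1 had an unadjusted p under 0.05, and DESeq2 called 0 while giving 2 no adjusted p. The response of Pacsin1 was 0.18 lower on the log2 scale under the H2BE virus (95% interval of the difference -0.35 to -0.01, adjusted p = 0.273, edgeR). That of Pacsin2 differed by -0.06 (-0.43 to 0.32, adjusted p = 0.917, edgeR) and that of Fnbp1l by -0.05 (-0.22 to 0.11, adjusted p = 0.782, edgeR). The difference for Trip10 was 0.87 (SE 0.36) and for Pacsin3 0.22 (SE 0.25). These are descriptions and no test, since both were chosen for their fall in one of the contrasts.

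The make-up of each subfamily was described by the share of each gene in its summed CPM per kb of annotated exon. The shares depend on this choice of length. Pacsin3 held 3.73% of the PACSIN sum in H2BE+BDNF against 15.2% and 17.9% in the samples of H2BE, and 3.10% in BDNF against 18.0% in Control. Pacsin2 held 24.3% in H2BE+BDNF against 14.5% in H2BE, and 26.2% in BDNF against 16.6% in Control. The sum of the 3 genes ran from 36.8 to 37.1 CPM per kb in H2BE+BDNF, against 37.7 to 38.5 in H2BE, and from 36.5 to 40.1 in BDNF, against 35.0 to 36.5 in Control. Pacsin2 thus stood above Pacsin3 in all samples with BDNF, and the summed level moved far less than either gene. In the CIP4 subfamily Trip10 held 2.50% in H2BE+BDNF against 7.03% in H2BE, and 1.43% in BDNF against 7.37% in Control, beside Fnbp1l at 76.7% to 77.9% in the group means. Fcho1 held 88.9% to 90.2% of the FCHO sum in the 4 groups.

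**Figure D3:**
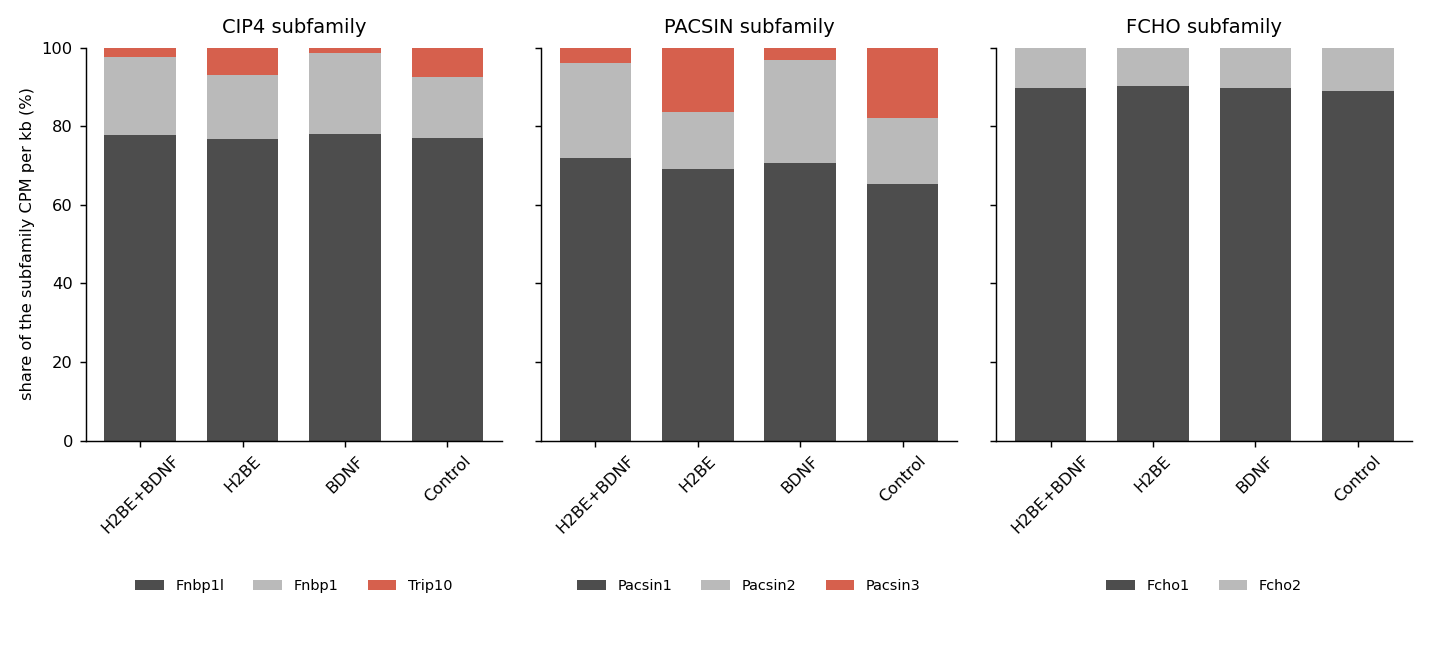
Share of each gene in the summed CPM per kb of its subfamily (%, mean of 2 samples) in H2BE+BDNF, H2BE, BDNF and Control. The Pacsin3 segment is 3.73% and 3.10% in the groups with BDNF and 18.0% in Control, and the FCHO shares are nearly level.

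The start regions of the genes that moved most are shown because Trip10 and Pacsin3 fell together while Pacsin2 rose. The windows are from RefSeq (GRCm38.p6, the assembly of mm10), run from 250 bases before to 50 after a start on the gene's strand, and all 8 genes matched the table, with 12 windows. Capitals mark a CArG box, the site of serum response factor, the single kind of match among 4 motifs in these 4 windows.
Trip10, chr17:57249201-57249500, plus strand: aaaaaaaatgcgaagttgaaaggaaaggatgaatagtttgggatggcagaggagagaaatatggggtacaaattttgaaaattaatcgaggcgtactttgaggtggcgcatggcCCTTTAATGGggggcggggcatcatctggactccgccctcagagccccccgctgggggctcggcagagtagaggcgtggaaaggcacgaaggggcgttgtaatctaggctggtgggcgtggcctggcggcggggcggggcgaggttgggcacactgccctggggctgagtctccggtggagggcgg
Pacsin3, upstream start, chr2:91256563-91256862, plus strand: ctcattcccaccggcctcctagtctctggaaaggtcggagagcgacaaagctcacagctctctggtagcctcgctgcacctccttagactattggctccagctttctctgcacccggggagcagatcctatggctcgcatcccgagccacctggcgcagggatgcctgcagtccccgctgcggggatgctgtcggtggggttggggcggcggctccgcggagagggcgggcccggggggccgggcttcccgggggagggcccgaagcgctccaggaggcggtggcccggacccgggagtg
Pacsin3, downstream start, chr2:91257079-91257378, plus strand: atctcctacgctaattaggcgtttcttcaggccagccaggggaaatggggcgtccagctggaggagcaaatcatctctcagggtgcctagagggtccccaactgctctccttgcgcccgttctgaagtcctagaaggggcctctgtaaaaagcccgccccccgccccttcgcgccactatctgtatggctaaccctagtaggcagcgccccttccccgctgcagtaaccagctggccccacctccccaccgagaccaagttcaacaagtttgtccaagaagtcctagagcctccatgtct
Pacsin2, most upstream start, chr15:83464557-83464856, minus strand: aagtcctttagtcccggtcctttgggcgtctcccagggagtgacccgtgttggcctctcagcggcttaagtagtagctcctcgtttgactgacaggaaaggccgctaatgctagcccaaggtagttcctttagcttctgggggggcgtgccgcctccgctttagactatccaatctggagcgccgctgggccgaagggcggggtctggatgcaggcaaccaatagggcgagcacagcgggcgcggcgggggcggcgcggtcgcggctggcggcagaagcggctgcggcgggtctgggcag
The motifs searched on both strands were the CRE half-site TGACG, the AP-1 site TGANTCA, the E-box CACGTG and the CArG box, and each of the 12 windows held at most 1 match, so none overlap. Among 32851 windows of all genes they were found in 20.8%, 7.81%, 7.15% and 1.63%. Trip10 had 1 CArG match, both windows of Fnbp1 had 1 CRE half-site each and a downstream window of Pacsin2 had 1 AP-1 match, while the other 8 windows had none of the 4. The GC content was 59.0% at Trip10, 69.7% and 58.7% at Pacsin3 and 65.3% at the upstream window of Pacsin2, against a median of 52.7% over all windows.

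Related genes were read from lists written from general knowledge. Of 15 other F-BAR genes 11 were tested, and under the H2BE virus BDNF changed 6, of which 1 rose and 5 fell (median log2 fold change -0.29, beside 0 over all tested genes, of which 13.4% rose and 12.3% fell). Gas7, which promotes neurite outgrowth, fell to 308 ± 2.8 CPM in H2BE+BDNF, against 412 ± 29 CPM in H2BE (adjusted p = 4.94e-05, edgeR, SD, n = 2 each). Fchsd1, a relative of the fly synapse protein Nervous wreck, rose to 58.4 ± 3.9 CPM in H2BE+BDNF, against 37.7 ± 2.1 CPM in H2BE (adjusted p = 0.000161, edgeR). Fchsd2, another such relative, fell (log2 fold change -0.31, adjusted p = 0.00188, edgeR). Under the control virus 6 of the 11 were called, 2 up and 4 down (median -0.20), beside 31.4% of all tested genes. For H2BE against Control 2 of the 11 were called, with 2 up, beside 2.13% of tested genes. For H2BE+BDNF against BDNF 0 were called, beside 0.0223%. The difference of BDNF responses was called for 1 of the 11, with a lower response under the H2BE virus, beside 1.15% of tested genes. The I-BAR genes, whose proteins bend membrane outward, had 4 tested, of which Mtss2 (-0.36) and Mtss1 (-0.31) fell under the H2BE virus. Of 23 tested N-BAR and other BAR genes 5 rose and 3 fell (median 0.08), 8 in all beside 25.8% of tested genes called, with Arhgap26, the endocytic GTPase-activating protein GRAF1, at 0.81, Asap2 at 0.57, the synaptic vesicle protein amphiphysin Amph at -0.49 and the endophilin Sh3gl2 at -0.37.

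The partners of F-BAR proteins in fission and coats moved both ways, in a comparison in which 13.4% of all tested genes rose and 12.3% fell. Among 9 dynamin, synaptojanin and EHD genes 3 rose and 2 fell with BDNF under the H2BE virus (median 0.06). Ehd3, a membrane-remodelling ATPase whose family binds PACSINs, rose by 0.70 on the log2 scale. The lipid phosphatase gene Synj2 rose by 1.89, to 35.4 ± 0.13 CPM in H2BE+BDNF, against 9.47 ± 0.79 CPM in H2BE. The neuronal dynamin Dnm1 fell to 479 ± 12 CPM in H2BE+BDNF, against 666 ± 34 CPM in H2BE, and Dnm3 fell by 0.60 on the log2 scale. Of 28 clathrin and AP2 genes 6 rose and 5 fell (median 0.07), with Itsn1, a scaffold that binds FCHO proteins, at -0.47, Hip1r at -0.43, Dnajc6 at -0.33 and Snap91 at 0.25. Of 32 tested Cdc42 and actin genes 11 rose and 2 fell (median 0.15), with the Arp2/3 subunits Arpc5l (0.65), Arpc3 (0.36) and Arpc2 (0.33) and the WAVE protein Wasf1 (-0.50).

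**Figure D4:**
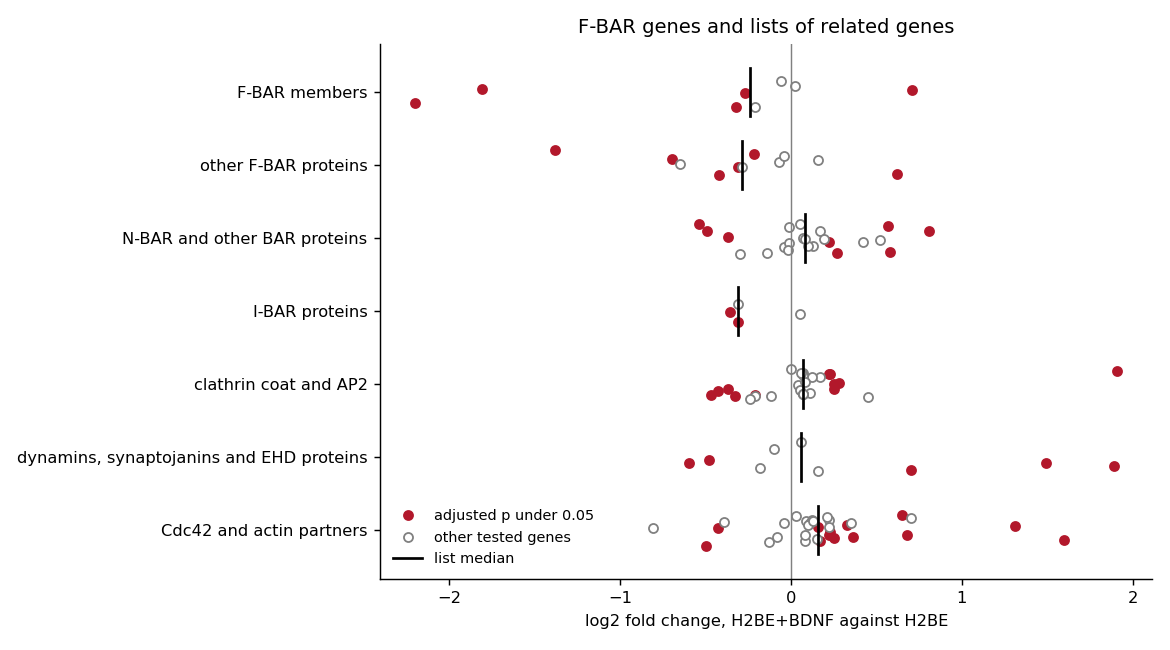
Log2 fold change of H2BE+BDNF against H2BE (edgeR) for the 8 F-BAR genes and for 6 lists of related genes, with called genes filled, others open and the list median as a line. Pacsin3 (-2.20) and Trip10 (-1.81) are the 2 lowest points of the plot, and list medians lie between -0.31 and 0.15.

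The summed levels of several lists of non-neuronal markers were higher in the samples with BDNF. The summed CPM of 7 progenitor markers was 231 to 237 in H2BE+BDNF against 97.5 to 99.2 in H2BE, and 223 to 239 in BDNF against 108 in Control. Only 2 of the 7 were called up under the H2BE virus, Vim (log2 fold change 1.67) and Mki67 (1.95). Top2a (1.17), Sox2 (0.33), Nes (0.31), Pax6 (0.04) and Hes5 (-0.61) were not called there. Under the control virus 5 of the 7 were called up, Vim (1.47), Mki67 (1.76), Top2a (1.66), Nes (0.57) and Sox2 (0.43). Pax6 (-0.61) and Hes5 (0.42) were not called under that virus. For 7 microglia markers, of which 3 were tested and 2 called, the sums were 22.3 to 23.2 CPM in H2BE+BDNF against 5.35 to 6.78 in H2BE, and 21.8 to 23.5 in BDNF against 9.07 to 9.83 in Control. Most of that sum was Cd68, at 18.5 CPM in H2BE+BDNF against 3.52 CPM in H2BE, and 17.6 CPM in BDNF against 4.87 CPM in Control, while C1qa had 1.46 CPM in H2BE+BDNF against 1.07 CPM in H2BE, and 2.03 CPM in BDNF against 2.73 CPM in Control. C1qa was not called under either virus. The other called marker was Aif1 (log2 fold change 2.95 under the H2BE virus), which was not called under the control virus (-0.75). For 8 markers of the oligodendrocyte lineage, 1 of them called, they were 83.6 to 87.1 CPM in H2BE+BDNF against 47.1 to 51.6 in H2BE, and 75.6 to 83.7 in BDNF against 43.4 to 46.3 in Control. For 7 mural and fibroblast markers they were 57.0 to 59.1 CPM in H2BE+BDNF against 62.2 to 78.6 in H2BE, and 48.8 to 58.4 in BDNF against 61.7 to 71.3 in Control. Of the mural and fibroblast markers 1 was called up and 1 down under the H2BE virus, and 1 down under the control virus. Astrocyte markers summed to 447 to 452 CPM in H2BE+BDNF against 465 in H2BE, and 436 to 472 in BDNF against 378 to 394 in Control. Most of that sum was Slc1a2, at 394 CPM in H2BE+BDNF against 399 CPM in H2BE, and 375 CPM in BDNF against 316 CPM in Control. Of these markers 1 was called under the H2BE virus, Aqp4, which fell (log2 fold change -1.06). Under the control virus 2 were called, Gja1 (0.87) and Slc1a2 (0.22), which rose, and Aqp4 (0.39) was not called. Endothelial markers summed to at most 3.84 CPM in any sample. No marker of these lists was at 0 in all distinct libraries. The part of these cells in the rise of Pacsin2 and in the falls of Trip10 and Pacsin3 was not tested.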

How the data were processed

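Counts per gene were measured by polyA RNA sequencing in 10 libraries of 4 groups. The authors deposited raw counts for 48526 Ensembl genes and a second table of signal values, which are those counts divided by 1 size factor per library. The submitters' processing notes name mm10, SAMtools, DESeq2 and deepTools without versions, while no source used here gives the aligner or the annotation release. The F-BAR genes were found by symbol in the second table, and the deposited raw counts were used for all values. The members and gene lists were chosen with earlier results of these data known.

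Genes were filtered with filterByExpr (minimum count 10, minimum total 15), which kept 13452 genes and 99.78% of counts. TMM scaling and edgeR's quasi-likelihood test (R 4.3.3 with edgeR 4.0.16 and limma 3.58.1) were applied to the 8 distinct libraries of all 4 groups, with p adjusted over all tested genes (Benjamini-Hochberg) at 0.05. A floor of 3 counts is 0.212 to 0.593 CPM across libraries. Alternatives were DESeq2 1.42.0, its size factors, no filter, all 10 libraries, replicate 3 in place of 1, a replicate block, a lowess correction (span 0.3) for transcript length and GC content, and leaving out each library. A crossed pairing of replicate numbers was added after seeing the data. Genes named from gene and marker lists are among the up to 4 per list called in H2BE+BDNF against H2BE with the smallest p. Some markers that were not called there are named besides, to show what the summed levels rest on or which were called under the control virus. Exon lengths are from GENCODE M21, and 43 tested genes had no length. Log2 CPM for correlations used a prior count of 2.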

Additional observations from a re-analysis of the deposited data

How the results depend on the processing

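For BDNF, the direction of Trip10, Pacsin3, Pacsin2 and Fnbp1l held in all 15 alternatives under both viruses. For Trip10 and Pacsin3 under the control virus the selection fixes this in advance, and nothing is read from it. Counts over all genes moved more. For BDNF against Control 4225 genes were called, 2680 with DESeq2 and 6463 with all 10 libraries, and 2278 to 4499 without 1 library, the lowest without Control replicate 1. For H2BE+BDNF against H2BE 3466 were called, and 1819 to 4157 without 1 library, the lowest when H2BE replicate 2 was left out and 2244 for replicate 2 of H2BE+BDNF. For H2BE against Control 287 were called, 559 with no filter, 1611 with all 10 libraries, 19 after length and GC correction and 140 with the replicate block. Leaving out 1 library gave 2 to 890, with 2 without Control replicate 1, 153 without Control replicate 2, 7 without H2BE replicate 2, 68 without H2BE replicate 3, 890 without BDNF replicate 1 and 888 without BDNF replicate 2. With all 10 libraries 1 F-BAR gene, Pacsin1, was called there (log2 fold change 0.17, adjusted p = 0.032, edgeR). For H2BE+BDNF against BDNF 3 were called, 10 with DESeq2, 216 with no filter, 24 with all 10 libraries, 1 with replicate 3 in place of 1 and 119 with the replicate block. Leaving out 1 library gave 1 to 764 genes there, the highest without BDNF replicate 1, and 0 to 1 F-BAR genes. For the difference of BDNF responses 155 were called, 440 with no filter, 1169 with all 10 libraries, 349 with replicate 3 in place of 1, 5 after length and GC correction, 245 with the replicate block, and 0 to 897 without 1 library, with 0 without Control replicate 1 or H2BE replicate 2. The cause was not tested.

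The groups share replicate numbers, but the deviations of replicate 2 correlated at -0.299 to -0.167 between groups, and no label ties a number to a culture or batch, so samples share only a number. A crossed pairing within each virus, chosen after seeing the data, called 4886 genes for BDNF against Control, and 3813 genes and 5 F-BAR genes for H2BE+BDNF against H2BE. Outside BDNF against Control the replicate block changed no call among the 8. The depth limits Trip10 most, with 19 to 31 counts per distinct library with BDNF.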

Other observations

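Of 10458 genes with at least 5 CPM, those whose log2 CPM followed Trip10 most closely over the 8 distinct libraries were Ift46, a subunit of intraflagellar transport (Pearson r = 0.991), Dync1i1, a dynein intermediate chain (0.987), and Lancl2 (0.987). For Pacsin3 they were the LIM-domain gene Crip2 (0.997), Tmem130 (0.997) and Cspg5, a brain proteoglycan (0.996). These are descriptions over 8 libraries that share their BDNF groups. All 6 genes were lower with BDNF, a direction that follows from choosing them by this correlation. Their falls were smaller than those of Trip10 and Pacsin3, which were themselves selected as among the largest. Under the H2BE virus the log2 fold changes were -0.35 for Ift46, -0.67 for Dync1i1, -0.40 for Lancl2, -1.02 for Crip2, -0.40 for Tmem130 and -0.74 for Cspg5. Crip2 had 63.8 ± 1.1 CPM in H2BE+BDNF, against 129 ± 9 CPM in H2BE (SD, n = 2 each).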
